A study of Rattus norvegicus with 24 samples.

Results

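The comparison described here sets 6 rats held in restraint for 2 h against 6 control rats and asks which hypothalamic transcripts differed at the end of the stress. All 12 were male Wistar rats, an outbred laboratory strain, aged 7 weeks, and their arrays were normalised together by the authors. They account for 12 of the 24 columns of values and for 12 of the 18 rats of the series, whose other rats were restrained in the vapour of the odorant linalool and enter no comparison here. Restrained rats sat in steel-wire mesh cages that left breathing free and prevented turning, during the light phase. All rats were decapitated directly afterwards, and the sources used here do not say how the controls were kept over those hours. Each array held RNA of the hypothalamic block of 1 rat, cut between the optic chiasm and the mammillary bodies. A block contains neurons, glia, vessels and any attached membrane, so fewer cells of a type and less RNA per cell cannot be told apart.

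Of the 31099 probe sets on the array, 20826 carried 1 gene symbol, and these gave 14217 genes, each read from its brightest probe set. Values are log2 signals, from 5.65 to 14.9. For 80.9% of the genes the residual SD, the spread between rats of the same group, was below 0.01 on this scale. Such genes are called compressed here, because their log2 differences are far smaller than those of other genes with the same consistency between rats (median residual SD of 0.000153 against 0.137). Their differences are given as multiples of the residual SD, which for a difference of means of 6 against 6 rats has an SE of 0.577. A gene is said to have risen or fallen when its limma adjusted p was under 0.05 over all 14217 genes.

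Restraint activates the hypothalamic-pituitary-adrenal axis, in which hypothalamic corticotropin-releasing hormone drives pituitary corticotropin and, through it, adrenal corticosterone. Corticosterone enters the brain and binds the glucocorticoid and mineralocorticoid receptors, transcription factors that raise a well-known set of genes within hours. Those genes include feedback inhibitors of the receptor, kinases, enzymes of fuel use and inhibitors of inflammation.

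In all, 101 genes (0.71%) passed, of which 69 (0.485%) rose and 32 (0.225%) fell. The rat-by-rat ranges of the groups did not overlap for 95 of the 101, and for 265 of all genes (1.86%). Of the called genes 42 were compressed (31 that rose and 11 that fell), a call rate of 0.365% among compressed genes against 2.18% among the others. The median gene differed by 0.11 residual SDs, and 96.4% of the genes lay within 2 residual SDs of no difference. Small shifts between arrays weigh on the compressed genes: after median centring of each array, which adds 0.018 to the median gene, 62 genes passed and 698 in place of 2270 had an unadjusted p under 0.05. The medians of lists given below are therefore over genes that were not compressed.

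**Figure D1:**
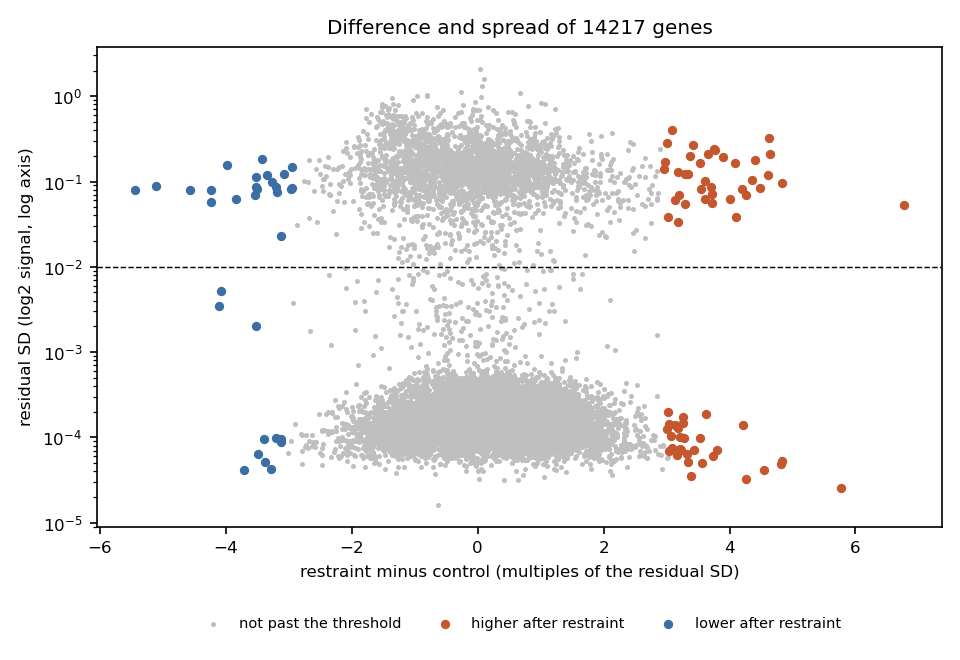
Difference between restrained and control rats for each of the 14217 genes, in multiples of its residual SD (horizontal axis), against the residual SD itself (vertical log axis, log2 signal). Points in colour are the 69 genes that rose and the 32 that fell; the dashed line at 0.01 separates the 42 compressed called genes below it from the 59 above it.

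The 6 control arrays were less alike than the 6 restraint arrays, at -132 to 14.5 against 33.1 to 77.1 on the first principal component (27.7% of the variance in residual SDs). A score over 19 meningeal and fibroblast markers (their mean in residual SDs about the 12-array mean) was -1.04, -0.627, 0.567, 0.844, 2.23 and 2.13 in controls 1 to 6 and -0.927 to -0.45 after restraint. All 19 markers lay lower after restraint, 15 at an unadjusted p under 0.05 (6.58% of all genes lay lower at that level) and none past the threshold. Their median log2 difference was -0.85 with all controls and -0.23 without controls 4, 5 and 6. Of 18 probe sets for control RNA added at hybridisation, which is not from rat, all 18 read lower after restraint. Of these, 11 had an unadjusted p under 0.05. By name they read only bioB, bioC, bioD and cre, so they are not 18 independent measures. Of all 57 array control probe sets 1 passed when p was adjusted over the 57. The score over the 18 was -0.25 to 1.46 in the controls and -2.03 to 0.057 after restraint. Without controls 5 and 6 the comparison called 3 genes, and when the meningeal score was held as a covariate it called 0 (limma, 1172 at an unadjusted p under 0.05). Fits with fewer arrays or a covariate also have less power. Leaving out 1 restrained rat alone gave 26 (rat 1) to 78 calls (rat 2). The part of the meningeal difference in the loss of calls was not tested. The part of the hybridisation controls in the gene results was not tested. Of 23 measured markers of hypothalamic neurons 13 were not compressed, among them Pmch, Hcrt, Cartpt, Avp, Oxt, Gal, Sst and Nkx2-1, while Pomc, Sim1, Otp, Gnrh1 and Ghrh were. None of the 23 passed.

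Genes known to be induced by glucocorticoids held the highest share of risen members among the 31 gene lists. The lists and their members were chosen with earlier results of these data known, so this ranking is a description and no independent test. Of 40 measured members 12 rose, none fell and 28 did not pass, 25 were higher and 1 lower at an unadjusted p under 0.05, and 14 had groups without overlap. Over all genes the same measures were 0.485%, 0.225%, 9.39%, 6.58% and 1.2% (higher without overlap). Among its 32 members that were not compressed, 27 lay higher and 5 lower with a median log2 difference of 0.36, against -0.02 for the 2710 such genes overall. Without controls 4, 5 and 6 that median was 0.38.

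The hormone-responsive kinase gene Sgk1, whose product acts on ion channels and transporters, lay at 10.34 to 11.04 in the controls (median 10.92) and at 11.70 to 12.71 after restraint (median 12.38). No restrained rat overlapped a control, and the means moved from 10.83 ± 0.265 to 12.33 ± 0.372 (SD, n = 6), a difference of 1.5 (SE 0.183, adjusted p = 0.0117). Pdk4 encodes a mitochondrial kinase that blocks pyruvate dehydrogenase and so spares glucose. Pdk4 lay at 8.15 to 8.56 in the controls (median 8.38) and at 8.80 to 10.19 after restraint (median 9.71); it rose by 1.25 (SE 0.229, adjusted p = 0.0428). Both genes were lowest, among restrained rats, in rat 6; Pdk4 in rat 6 still stood 0.24 log2 units above the highest control. Cdkn1a, which encodes the cell cycle inhibitor p21, read 8.80 to 9.63 in controls and 9.73 to 10.21 after restraint (medians 8.99 and 10.05) and rose by 0.91 (SE 0.138, adjusted p = 0.0227). Its highest control, rat 4, lay 0.11 log2 units below the lowest restrained rat. The metallothionein gene Mt2A read 9.39 to 10.11 in controls and 9.99 to 10.78 after restraint (medians 9.65 and 10.63) and rose by 0.86 (SE 0.162, adjusted p = 0.0462). Its groups overlapped, because control 4 stood above restrained rat 6.

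Smaller differences were in part the most regular ones. Slc2a1, which encodes the glucose carrier GLUT1, lay at 11.06 to 11.18 in the controls (median 11.12) and at 11.43 to 11.55 after restraint (median 11.46). The difference was only 0.36 (SE 0.0298, adjusted p = 0.00307), but with a residual SD of 0.0526 it was the largest of all genes as a multiple of the residual SD (6.76). Klf9, a transcription factor gene that answers to glucocorticoid and thyroid hormone, read 11.50 to 11.70 in controls and 11.88 to 12.13 after restraint (medians 11.67 and 12.03) and rose by 0.38 (SE 0.0474, adjusted p = 0.0123). A second probe set rose by 0.37 (second probe sets are said to have risen or fallen where they passed in a fit over all 20826) and a compressed one differed by 1.52 residual SDs. Klf15, which regulates amino acid and lipid metabolism, rose by 0.40 (SE 0.0693, adjusted p = 0.0348), with 0.35 in a second probe set. The transcriptional repressor gene Bcl6 read 9.32 to 9.60 in controls and 9.82 to 10.17 after restraint (medians 9.48 and 10.05) and rose by 0.55 (SE 0.0677, adjusted p = 0.0117). The highest controls and the lowest restrained rats of Slc2a1, Klf9, Klf15 and Bcl6 did not meet.

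Arrdc2, an arrestin-domain gene, read 9.05 to 9.45 in controls and 9.65 to 10.32 after restraint (medians 9.21 and 9.97) and rose by 0.77 (SE 0.119, adjusted p = 0.0239). Plekhf1, which encodes an endosomal lipid-binding protein, rose by 0.67 (SE 0.0931, adjusted p = 0.0144), without overlap. Mfsd2a, a carrier of lysophospholipids in brain vessels, read 8.63 in controls and 9.04 after restraint on average and rose by 0.41 (SE 0.079, adjusted p = 0.0492), although control 2 (8.89) stood above restrained rat 6 (8.85). Angptl4, a secreted inhibitor of lipoprotein lipase, rose by only 0.12 (SE 0.0218, adjusted p = 0.0462), and it passed in none of the 12 fits that each left out 1 rat. The lowest restrained rat stood 0.05 log2 units above the highest control for Angptl4 and 0.21 for Plekhf1.

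Members of the same list that did not pass included the standard markers of receptor action. The receptor's co-chaperone gene Fkbp5, which limits receptor activity, read 8.20 to 9.11 in controls and 9.03 to 9.60 after restraint (medians 8.55 and 9.24), a difference of 0.67 (SE 0.154, adjusted p = 0.0901). Controls 4, 5 and 6 were its 3 highest controls, and without them the difference was 0.93. Tsc22d3, the gene of the anti-inflammatory protein GILZ, differed by 0.36 (SE 0.0826, adjusted p = 0.0901) and the clock gene Per1 by 0.21 (SE 0.0412, adjusted p = 0.0563), both without overlap. Errfi1, an inhibitor of the epidermal growth factor receptor, differed by 0.70 (SE 0.137, adjusted p = 0.0544), Nfkbia, which encodes the NF-kappaB inhibitor, by 0.70 (SE 0.165, adjusted p = 0.0959), and the small GTPase gene Rhob by 0.13 (SE 0.0316, adjusted p = 0.115). Tob2, an antiproliferative gene that was compressed, differed by 2.66 residual SDs (adjusted p = 0.0754). Txnip, an arrestin-domain inhibitor of thioredoxin, differed by -0.19 (SE 0.0544, adjusted p = 0.149) and was the 1 member lower at an unadjusted p under 0.05. Liver-typical members such as Tat and Sds were compressed, with 0.41 and 0.83 residual SDs (adjusted p = 0.748 and 0.483).

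Restrained rats differed in the size of this response. The glucocorticoid score was -1.35 to -0.473 in controls, and after restraint it was 1.53, 1.37, 1.17, 0.576, 1.02 and 0.116 in rats 1 to 6. For 10 of the 12 genes that rose, rat 6 was the restrained rat nearest to the controls, and for 7 of them rat 1 was the farthest. Rat 6 was also nearest for 13 of the 26 other genes that rose and were not compressed, and for 11 of the 21 that fell. Among the 42 compressed genes it was nearest for 5. What set rat 6 apart was not tested.

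**Figure D2:**
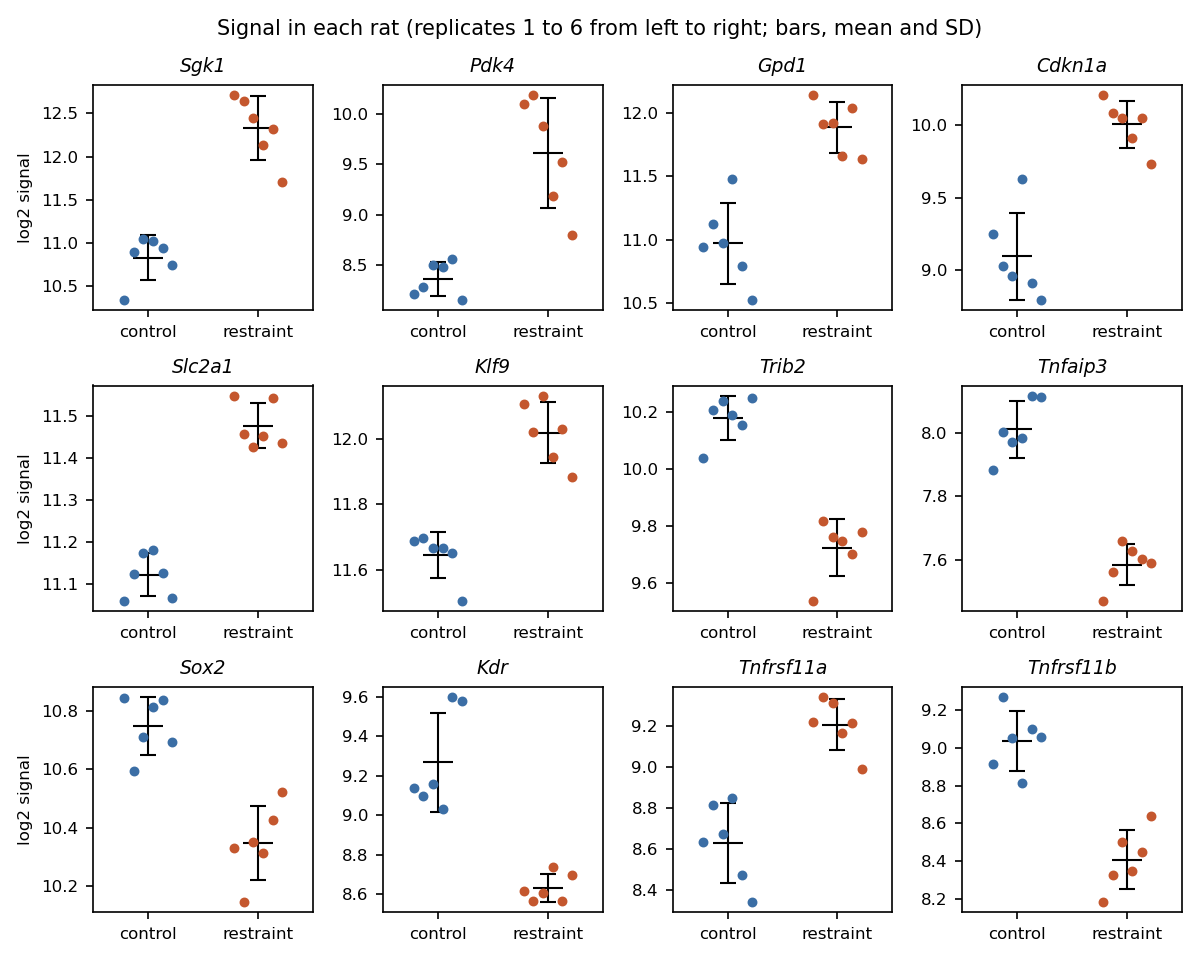
Deposited log2 signal (vertical axis, a separate range for each gene) of 12 genes in each of the 6 control (blue) and 6 restrained rats (orange), replicates 1 to 6 from left to right, with the group mean and SD. In each of these 12 genes all restrained rats lie on one side of all controls, and in Sgk1, Pdk4, Cdkn1a and Klf9 restrained rat 6 lies nearest to the controls.

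Promoters of the members that moved together were read for hormone and start-site motifs. RefSeq promoters (GRCr8, 250 bases before to 50 after the start) were given for 76 of the 101 called genes. A full glucocorticoid response element, written as GNACA, any 3 bases and TGTNC, and searched on both strands, was in 0.359% of the 11700 promoters of genes tested and in 0.422% of all 27457. It was in 0 of 50 promoters of genes that rose and in 0 of 26 of genes that fell. Within the glucocorticoid list only Map3k6 had a match (1 of 35), a kinase gene that differed by 0.68 without passing (adjusted p = 0.159). The shorter hormone motif TGTTCT, which can overlap a full element, was in 13.4% of the promoters tested, in 2 of 50 that rose and in 3 of 26 that fell. The start-site motif TATAAA, also searched on both strands, was in 8.45% of the promoters tested, in 6 of 50 that rose, in 3 of 26 that fell and in 8 of 35 of the glucocorticoid list. It was in 4 of the 11 promoters of glucocorticoid-list genes that rose, those of Slc2a1, Sgk1, Angptl4 and Mt2A, and in Slc2a1 it lay 24 bases after the start. A missing match says only that these letters are not in this window. The 250 bases before the start are printed 5′ to 3′ on the gene's strand for 3 genes of differing response with TATAAA in capitals (joined in Angptl4 with an overlapping reverse match), and for Map3k6 with the response element in capitals. Their positions are chr1:24807232-24807481 (minus strand) for Sgk1, chr7:15258682-15258931 (minus strand) for Angptl4, chr19:10838709-10838958 (minus strand) for Mt2A and chr5:150723995-150724244 (plus strand) for Map3k6.
Sgk1: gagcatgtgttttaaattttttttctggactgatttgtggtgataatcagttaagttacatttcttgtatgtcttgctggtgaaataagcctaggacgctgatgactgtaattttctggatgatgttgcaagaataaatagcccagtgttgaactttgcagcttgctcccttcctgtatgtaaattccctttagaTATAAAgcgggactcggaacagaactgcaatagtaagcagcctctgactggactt
Angptl4: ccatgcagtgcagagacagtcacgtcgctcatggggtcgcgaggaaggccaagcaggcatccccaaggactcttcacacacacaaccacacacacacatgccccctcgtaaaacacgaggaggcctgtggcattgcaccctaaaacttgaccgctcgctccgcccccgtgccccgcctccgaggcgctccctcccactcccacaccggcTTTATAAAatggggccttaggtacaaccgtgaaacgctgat
Mt2A: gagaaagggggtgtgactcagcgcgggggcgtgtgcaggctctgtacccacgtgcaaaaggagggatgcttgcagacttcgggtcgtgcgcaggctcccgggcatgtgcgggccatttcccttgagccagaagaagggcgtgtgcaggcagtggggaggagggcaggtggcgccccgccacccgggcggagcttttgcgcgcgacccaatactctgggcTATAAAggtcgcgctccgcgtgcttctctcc
Map3k6: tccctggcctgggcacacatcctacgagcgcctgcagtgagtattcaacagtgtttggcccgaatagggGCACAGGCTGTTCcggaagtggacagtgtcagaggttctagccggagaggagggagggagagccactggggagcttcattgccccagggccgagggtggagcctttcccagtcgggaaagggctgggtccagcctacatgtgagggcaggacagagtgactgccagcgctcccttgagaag
The match begins 55 bases before the start in Sgk1, 31 before it in Mt2A, and 41 and 39 before it (reverse and forward) in Angptl4, whose signal rose least of the 3. A CACGTG motif was in 8.94% of the promoters tested, in 6 of 50 that rose and in 5 of 26 that fell (Tnfaip3, Nrarp, Pfkfb3, Vps37b and Phf3).

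Genes of fuel switching and lipid use rose in 8 of 50 measured members and fell in none. At an unadjusted p under 0.05, 14 were higher and 4 lower (all genes: 9.39% and 6.58%). Of the 50, 35 were compressed, and the other 15 had a median log2 difference of 0.12 (0.14 without controls 4, 5 and 6). Pdk4 and Angptl4, described above, belong to this list as well as to the glucocorticoid list. Pnpla2, the gene of adipose triglyceride lipase, lay at 8.63 to 8.92 in the controls (median 8.76) and at 9.13 to 9.34 after restraint (median 9.21). The groups stood 0.21 log2 units apart at their nearest rats, and the gene rose by 0.47 (SE 0.0548, adjusted p = 0.0117). G0s2 encodes an inhibitor of that lipase; it read 7.92 to 8.48 in controls and 7.53 to 7.82 after restraint (medians 8.12 and 7.68) and differed by -0.48 (SE 0.102, adjusted p = 0.0739), without overlap but also without passing. Hormone-sensitive lipase, Lipe, was compressed and rose by 3.04 residual SDs (adjusted p = 0.0492), with its 12 values at -3.27 to 0.75 residual SDs about the 12-array mean in the controls and 1.11 to 2.22 after restraint. A second compressed Lipe probe set of similar signal differed by only 0.13 residual SDs. Lipe passed in 1 of the 12 fits that each left out 1 rat. For Plin5 and Plin4, which coat lipid droplets, the differences were 2.53 and 2.48 residual SDs without passing (adjusted p = 0.0855 and 0.0901).

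Gpd1, the cytosolic enzyme that joins glycolysis to glycerolipid synthesis and carries reducing equivalents to mitochondria, lay at 10.52 to 11.48 in the controls (median 10.96) and at 11.64 to 12.15 after restraint (median 11.92). It rose by 0.92 (SE 0.152, adjusted p = 0.0302), and its second probe set by 0.89. The peroxisome division gene Pex11a read 8.1 to 8.43 in controls and 8.64 to 9.24 after restraint (medians 8.26 and 8.89) and rose by 0.67 (SE 0.113, adjusted p = 0.0326), with 0.33 in a second probe set. The ceramidase gene Acer2, which releases sphingosine, read 8.21 to 8.59 in controls and 8.84 to 9.37 after restraint (medians 8.29 and 9.14) and rose by 0.79 (SE 0.102, adjusted p = 0.0134), with 0.81 in a second probe set. Foxo3, a transcription factor held back by insulin signalling, rose by 0.22 (SE 0.0389, adjusted p = 0.0392), although 2 dimmer compressed probe sets differed by only 0.361 and 0.497 residual SDs. Slc25a13, the mitochondrial aspartate-glutamate carrier of the malate shuttle, is in none of the lists and rose by 0.41 (SE 0.0693, adjusted p = 0.0327) and 0.21 in its 2 probe sets.

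Of 32 genes of hypoxia and glucose use, 1 rose (Slc2a1) and 1 fell. Higher at an unadjusted p under 0.05 were 6 and lower 3 (all genes: 9.39% and 6.58%). The gene that fell was Pfkfb3, whose enzyme makes the activator of the glycolytic step of phosphofructokinase. Pfkfb3 lay at 9.13 to 9.25 in the controls (median 9.15) and at 8.83 to 9.0 after restraint (median 8.94). It fell by 0.25 (SE 0.0329, adjusted p = 0.0136) without overlap, while a compressed probe set fell by 3.91 residual SDs and another differed by 1.19. Aldoc, the brain aldolase, differed by 0.14 (SE 0.0374, adjusted p = 0.141).

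Vessel genes gave calls in both directions. Of 25 endothelial markers 2 rose (Slc2a1 and Mfsd2a), 3 fell and 20 did not pass. Unadjusted p was under 0.05 for 2 higher and 8 lower (all genes: 9.39% and 6.58%). The 13 that were not compressed had a median log2 difference of -0.11 (-0.09 without controls 4, 5 and 6). Kdr, the main receptor for vascular endothelial growth factor, lay at 9.03 to 9.60 in the controls (median 9.15) and at 8.56 to 8.74 after restraint (median 8.61). Controls 5 and 6 stood apart at 9.60 and 9.58, yet the other 4 controls also lay above every restrained rat. The difference was -0.64 (SE 0.105, adjusted p = 0.0302), and -0.50 without controls 4, 5 and 6 (adjusted p = 0.0381), where it was 1 of 2 genes to pass. The other, Cavin2, a caveolar coat gene, differed there by 0.43 (adjusted p = 0.00217) but with all arrays did not pass (adjusted p = 0.2). A dimmer compressed probe set of Kdr differed by 0.888 residual SDs with all arrays, in the other direction.

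Tfrc, the transferrin receptor that takes up iron, read 11.06 to 11.15 in controls and 10.58 to 10.97 after restraint (medians 11.11 and 10.79) and fell by 0.33 (SE 0.0565, adjusted p = 0.0372), and its second probe set fell by 0.26. The thyroxine carrier gene Slco1c1 read 10.58 to 10.88 in controls and 10.45 to 10.61 after restraint (medians 10.77 and 10.47), and it fell by 0.25 (SE 0.0479, adjusted p = 0.0492) with control 4 overlapping. Its relative Slco1a4 differed by -0.35 (SE 0.0844, adjusted p = 0.101) and the tight junction gene Cldn5 by -0.11 (SE 0.0455, adjusted p = 0.287), and neither passed. The score over the endothelial markers was -0.589 to 0.74 in controls and -1.09 to 0.0534 after restraint, so the groups overlapped. Of 13 pericyte and smooth muscle markers none passed, and Tagln and Vtn differed by -0.70 (SE 0.247, adjusted p = 0.217) and -0.34 (SE 0.139, adjusted p = 0.275), highest in controls 5 and 6. The list of iron and thyroid transport, with 14 measured members, held 1 that rose and 2 that fell (all genes: 0.485% and 0.225%). Those that fell were Tfrc and Slco1c1, and the 1 that rose was the transcription factor gene Klf9, which is no carrier. At an unadjusted p under 0.05, 1 member was higher and 3 lower (all genes: 9.39% and 6.58%).

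Genes of the Notch pathway and glial progenitors fell in 4 of 31 members and rose in none. Lower without overlap were 5 (0.668% of all genes). At an unadjusted p under 0.05, 14 were lower and 5 higher (all genes: 6.58% and 9.39%). Of the 18 that were not compressed 14 lay lower, with a median log2 difference of -0.15 and, without controls 4, 5 and 6, of -0.10. Notch signals hold neural progenitor cells in an undifferentiated state, and in the adult hypothalamus such cells line the third ventricle. Nrarp, a feedback inhibitor that Notch itself induces, lay at 9.17 to 9.28 in the controls (median 9.24) and at 8.72 to 8.97 after restraint (median 8.87). No values met between the groups, and it fell by 0.36 (SE 0.0452, adjusted p = 0.0117). Sox2, a transcription factor of progenitors and glia, read 10.59 to 10.84 in controls and 10.15 to 10.52 after restraint (medians 10.76 and 10.34) and fell by 0.40 (SE 0.0642, adjusted p = 0.0264). Its other bright probe sets lay lower too, with differences of -0.36 and -0.31. Sox4, another progenitor factor, read 10.28 to 10.60 in controls and 10.11 to 10.23 after restraint (medians 10.47 and 10.18) and fell by 0.30 (SE 0.0482, adjusted p = 0.0264). Its 6 other probe sets were all compressed. Of these 5 lay on the same side, but none differed by more than 0.0115 log2 units, so their side can turn with the scaling. Nkx2-2, which specifies oligodendrocyte lineage cells, read 8.89 to 9.27 in controls and 8.52 to 8.71 after restraint (medians 8.96 and 8.66) and fell by 0.39 (SE 0.0667, adjusted p = 0.0327).

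Other members did not pass. The Notch target Hes5 differed by -0.58 and its relative Hes1 by 0.25 (adjusted p = 0.166 and 0.159), in opposite directions. The ligand genes Jag1 and Dll1 differed by -0.25 and by -2.48 residual SDs (adjusted p = 0.191 and 0.0912), and Id2 and Id3, inhibitors of helix-loop-helix factors, by 0.23 and -0.34 (adjusted p = 0.104 and 0.168). Tle1, a co-repressor used by Notch targets and other pathways, is in none of the lists. It was compressed and fell by 4.07 residual SDs (adjusted p = 0.0144), at 0.98 to 3.98 residual SDs about the 12-array mean in the controls and -2.91 to -0.91 after restraint. The score over this list was 0.0608 to 0.596 in controls and -0.79 to -0.0161 after restraint, without overlap. Controls 1 and 2, the controls of lowest meningeal score, were also the lowest controls here, at 0.0608 and 0.153. The part of the meningeal difference in this list was not tested.

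Cell cycle genes held 1 that rose, the inhibitor Cdkn1a, and 1 that fell, cyclin D1 (Ccnd1), among 40. Ccnd1, which drives entry into the cycle, read 9.52 to 9.76 in controls and 9.26 to 9.48 after restraint (medians 9.71 and 9.43) and fell by 0.27 (SE 0.0487, adjusted p = 0.0392), and its 2 other probe sets differed by -0.32 and -0.16. At an unadjusted p under 0.05, 11 members lay lower and 5 higher (all genes: 6.58% and 9.39%). The proliferation markers Mki67 and Cdk1 were compressed, with -1.47 and -1.46 residual SDs (adjusted p = 0.251 and 0.258).

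Genes around NF-kappaB and the TNF receptors gave calls in both directions. Of 42 members 2 rose and 2 fell (all genes: 0.485% and 0.225%). Unadjusted p was under 0.05 for 4 higher and 9 lower (all genes: 9.39% and 6.58%), so the higher count was near the share over all genes. Tnfaip3 encodes A20, an enzyme that shuts NF-kappaB signalling off. Tnfaip3 lay at 7.88 to 8.12 in the controls (median 7.99) and at 7.47 to 7.66 after restraint (median 7.6). It fell by 0.43 (SE 0.0446, adjusted p = 0.0117), the largest fall of all genes in residual SDs (-5.44), and without controls 4, 5 and 6 the difference was -0.37. The receptor RANK and its soluble rival osteoprotegerin bind the same ligand. Tnfrsf11a, the gene of RANK, read 8.34 to 8.85 in controls and 8.99 to 9.35 after restraint (medians 8.65 and 9.22) and rose by 0.58 (SE 0.0933, adjusted p = 0.0264). Osteoprotegerin, Tnfrsf11b, read 8.81 to 9.27 in controls and 8.18 to 8.64 after restraint (medians 9.06 and 8.40) and fell by 0.63 (SE 0.0896, adjusted p = 0.0164). Neither pair of groups overlapped, and without controls 4, 5 and 6 the differences were 0.50 and -0.67. Bcl6, given above, was the other member that rose. Irak2, a kinase gene of Toll-like and interleukin-1 receptor signalling outside the list, read 7.76 to 7.81 in controls and 7.90 to 8.02 after restraint (medians 7.80 and 7.94) and rose by 0.16 (SE 0.0218, adjusted p = 0.0144).

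Of 22 interferon response genes 1 fell (0.225% of all genes) and none rose. At an unadjusted p under 0.05, 2 were higher and 3 lower (all genes: 9.39% and 6.58%). The gene that fell was Irf8, a transcription factor of microglia and macrophages, by 0.28 (SE 0.0461, adjusted p = 0.0269) without overlap. Gpr34, a microglial receptor gene outside the lists, fell by 0.37 (SE 0.0687, adjusted p = 0.0437). None of the 18 microglia and macrophage markers passed. Tmem119 lay higher by 0.50 (SE 0.107, adjusted p = 0.0739) without overlap, and Tyrobp, which was compressed, differed by -1.59 residual SDs (adjusted p = 0.224). The microglial score was -0.777 to 1.32 in controls and -0.72 to 0.157 after restraint. In the MHC class I list none of 19 passed, and Psme1 and RT1-CE16 differed by -0.16 (SE 0.0648, adjusted p = 0.277) and by -1.61 residual SDs (adjusted p = 0.223).

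Feedback genes of kinase signalling rose in 1 and fell in 2 of 32. Of these genes 10 were higher and 5 lower at an unadjusted p under 0.05 (all genes: 9.39% and 6.58%). Trib2, a pseudokinase gene that steers proteins to degradation, lay at 10.04 to 10.25 in the controls (median 10.20) and at 9.54 to 9.82 after restraint (median 9.75). It fell by 0.46 (SE 0.0504, adjusted p = 0.0117) without overlap, and its second probe set fell by 0.33. Map3k1, a kinase upstream of JNK and ERK, read 8.71 to 8.95 in controls and 8.39 to 8.59 after restraint (medians 8.79 and 8.47) and fell by 0.34 (SE 0.0452, adjusted p = 0.0136), with -0.14 in a second probe set. Spsb1, an adaptor of a ubiquitin ligase, read 9.31 to 9.65 in controls and 9.85 to 10.01 after restraint (medians 9.52 and 9.98) and rose by 0.45 (SE 0.0591, adjusted p = 0.0135), and 2 other probe sets lay higher by 0.40 and 0.35. Spry2, an inhibitor of receptor tyrosine kinase signalling, differed by -0.27 (SE 0.056, adjusted p = 0.0705) and Trib1, compressed, by 2.69 residual SDs (adjusted p = 0.0739).

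**Figure D3:**
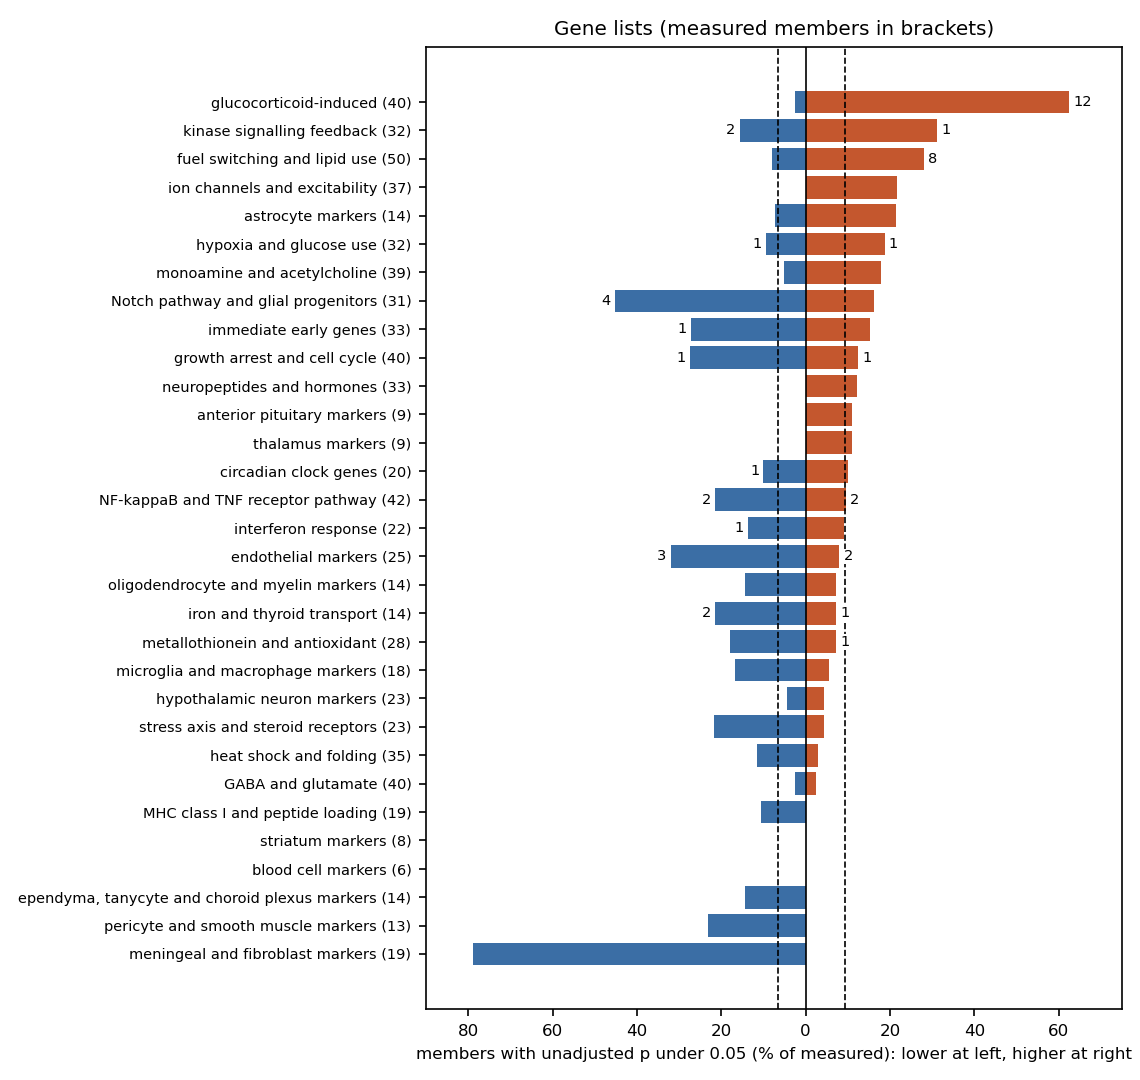
Share of the measured members of each of the 31 gene lists (number in brackets) that lay higher (orange, to the right) or lower (blue, to the left) after restraint at an unadjusted p under 0.05. Dashed lines mark the shares over all genes, 9.39% higher and 6.58% lower, and the number at a bar counts members past the adjusted threshold; the glucocorticoid list has 12 and the meningeal list none.

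Immediate early genes, which neurons switch on with activity, gave 1 call among 33, and it was downward. Unadjusted p was under 0.05 for 5 higher and 9 lower (all genes: 9.39% and 6.58%). Ier5 read 8.71 to 9.19 in controls and 8.36 to 8.66 after restraint (medians 8.94 and 8.53) and fell by 0.44 (SE 0.0839, adjusted p = 0.0492) without overlap, -0.29 without controls 4, 5 and 6. Its other probe sets, both compressed, differed by 0.773 and -1.325 residual SDs. Fos, Egr1, Nr4a1, Arc and Jun differed by -0.13, -0.43, -0.25, -0.50 and -0.22 (adjusted p = 0.519, 0.228, 0.304, 0.158 and 0.0901). Arc read 8.02 to 8.87 in controls and 7.78 to 8.00 after restraint (medians 8.24 and 7.80), and its 3 highest controls were rats 4, 5 and 6. Without those 3 controls, the differences of Egr1, Nr4a1 and Arc were -0.20, -0.04 and -0.21. The median over the 20 members that were not compressed went from -0.14 to -0.02.

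Of 20 clock genes 1 fell (0.225% of all genes) and none rose. At an unadjusted p under 0.05, 2 were higher and 2 lower (all genes: 9.39% and 6.58%). Per3 read 9.01 to 9.18 in controls and 8.76 to 8.95 after restraint (medians 9.06 and 8.82) and fell by 0.24 (SE 0.0389, adjusted p = 0.0264), without overlap. A dimmer compressed probe set of Per3 differed by only -0.261 residual SDs. Per1, described with the glucocorticoid genes, lay higher. Bhlhe40 and Nfil3, repressors of the clock's output arm, differed by -0.42 (SE 0.13, adjusted p = 0.17) and 0.32 (SE 0.1, adjusted p = 0.177).

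None of 33 neuropeptide and hormone genes passed, with 4 higher and none lower at an unadjusted p under 0.05 (all genes: 9.39% and 6.58%). Crh read 7.78 to 7.88 in controls and 7.73 to 7.87 after restraint (medians 7.82 and 7.80), a difference of -0.03 (SE 0.0245, adjusted p = 0.632). Oxt read 9.12 to 11.43 in controls and 8.00 to 11.48 after restraint (medians 11.30 and 11.14), with control 2 at 9.12 and restrained rat 3 at 8.00 far below their groups, and differed by -0.31 (SE 0.642, adjusted p = 0.841). The same 2 rats had the lowest Avp of their groups, and Avp differed by -0.48 (SE 0.421, adjusted p = 0.595) and Trh by -0.17 (SE 0.177, adjusted p = 0.664). Leaving out 1 rat moved Avp to between -0.68 (without control 2) and -0.15 (without restrained rat 3) and Trh to between -0.32 and -0.10 (without the same rats). With SEs of this size, differences as large as that of Fkbp5 could not be detected in Oxt or Avp. Npy and Cartpt, peptides of feeding circuits, differed by -0.21 (SE 0.118, adjusted p = 0.388) and 0.25 (SE 0.0998, adjusted p = 0.266), and the compressed genes Pomc, Ucn2 and Galp by 0.70, 2.31 and 1.59 residual SDs (adjusted p = 0.577, 0.116 and 0.224). Of 23 stress axis and steroid receptor genes none passed. Here 1 was higher and 5 lower at an unadjusted p under 0.05 (all genes: 9.39% and 6.58%). Without controls 4, 5 and 6 it was 1 higher and 1 lower (all genes: 5.47% and 3.66%). Nr3c1, the glucocorticoid receptor, was compressed at -1.28 residual SDs (adjusted p = 0.309). Fkbp4, a co-chaperone with a role opposite to that of Fkbp5, differed by -0.15 (SE 0.047, adjusted p = 0.183).

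None of the 39 monoamine and acetylcholine genes passed. Of these, 7 were higher and 2 lower at an unadjusted p under 0.05 (all genes: 9.39% and 6.58%). The 16 that were not compressed had a median log2 difference of 0.20 (0.19 without controls 4, 5 and 6). Slc6a3, the dopamine transporter, read 9.18 to 10.61 in controls and 10.40 to 10.85 after restraint (medians 9.79 and 10.70) and differed by 0.78 (SE 0.207, adjusted p = 0.131). Th, the first enzyme of catecholamine synthesis, differed by 0.63 (SE 0.203, adjusted p = 0.186), Ddc, the next enzyme, by 0.39 (SE 0.103, adjusted p = 0.129) and the vesicular carrier gene Slc18a2 by 0.49 (SE 0.189, adjusted p = 0.253). Control 1 was the lowest of all 12 rats for these 4 genes, of which Th and Slc18a2 were picked after their values were seen, and the groups of each overlapped.

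Among 37 ion channel and excitability genes none passed, with 8 higher and none lower at an unadjusted p under 0.05 (all genes: 9.39% and 6.58%). The sodium pump subunit gene Atp1b1 differed by 0.09 (SE 0.0183, adjusted p = 0.0656) without overlap and the potassium channel gene Kcnh2 by 0.11 (SE 0.0377, adjusted p = 0.203). Of 40 GABA and glutamate genes none passed, with Gabra2 at -0.32 (SE 0.108, adjusted p = 0.205) and Slc6a11 at 1.91 residual SDs (adjusted p = 0.165). Of 35 heat shock genes none passed, with Hspb1 at -0.51 (SE 0.139, adjusted p = 0.137) and Hspa4 at 1.56 residual SDs (adjusted p = 0.239). Of 28 metallothionein and antioxidant genes only Mt2A rose (0.485% of all genes) and none fell, with 2 higher and 5 lower at an unadjusted p under 0.05.

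Markers of other cells gave no call: none of 14 astrocyte, 14 oligodendrocyte, 14 ependymal and choroid plexus, 6 blood, 9 pituitary, 9 thalamic or 8 striatal markers passed. With 0.71% of all genes passing, lists this small can lack a call without differing from other genes. Aspa, an oligodendrocyte enzyme, differed by 0.56 (SE 0.132, adjusted p = 0.0998) without overlap and Sox10 by -0.14 (SE 0.0497, adjusted p = 0.23). Fgfr3, an astrocyte receptor gene, differed by 1.77 residual SDs (adjusted p = 0.197). Rarres2 and Vim of the ependymal list differed by -0.47 (SE 0.178, adjusted p = 0.243) and -0.53 (SE 0.226, adjusted p = 0.288) and were highest in controls 5 and 6. Calb2 and Slc17a6, markers of thalamus here, differed by 0.28 (SE 0.0774, adjusted p = 0.144) and 0.23 (SE 0.134, adjusted p = 0.409), and the thalamic score ranged from -1.54 to 0.869 in controls and from -1.16 to 1.23 after restraint. Ptgds, Aldh1a2 and Col1a2 of the meninges differed by -0.85 (SE 0.281, adjusted p = 0.194), -1.15 (SE 0.428, adjusted p = 0.234) and -1.22 (SE 0.456, adjusted p = 0.236). Drd2, Adora2a, Slc4a1, S100a9, Ghrhr, Prl and Irf2, the other members of smallest p in their lists, had adjusted p-values of 0.33, 0.808, 0.431, 0.646, 0.304, 0.379 and 0.177, and Otp of the hypothalamic list 0.201.

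Of the 101 called genes 65 are in none of the lists. Pla2g3, a secreted phospholipase, lay at 7.29 to 7.82 in the controls (median 7.64) and at 8.41 to 8.95 after restraint (median 8.50). It rose by 0.98 (SE 0.119, adjusted p = 0.0117) without overlap, exceeded among the called genes by Sgk1 and Pdk4 alone in log2 difference. Gpatch4 read 8.61 to 9.04 in controls and 9.47 to 10.13 after restraint (medians 8.97 and 9.71) and rose by 0.87 (SE 0.131, adjusted p = 0.0227), with 3 other probe sets higher by 0.56 to 0.74. The membrane protein gene Tmem252 read 6.75 to 7.16 in controls and 7.23 to 7.86 after restraint (medians 6.85 and 7.71) and rose by 0.76 (SE 0.11, adjusted p = 0.0187). Phactr3, a partner of protein phosphatase 1 and actin, rose by 0.29 (SE 0.0391, adjusted p = 0.0136), and its dimmer probe set by 1.12 (adjusted p = 0.0321 over all probe sets). Which of these 2 values describes the transcript was not tested. Zinc finger genes Zfp189 and Znf740 rose by 0.34 (SE 0.0466, adjusted p = 0.0136) and 0.25 (SE 0.0353, adjusted p = 0.0162).

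Phosphatase and calcineurin genes among the other risen ones were Ptp4a3 (0.36), Ptpdc1 (0.41), Ptpn11 (0.23), which encodes SHP2, and Rcan2 (0.27), a calcineurin inhibitor. Ptpn11 lay between 12.01 and 12.05 after restraint, the narrowest range of its group among these 4. Azin1, which raises polyamines (0.29), Xdh, which makes uric acid (0.18), Eva1a, an autophagy gene (0.32), and Fam83d, of the mitotic spindle (0.51), rose as well. So did Plekha5 (0.21), Pop1 (0.19), a subunit of RNase P, and Lims2 (0.11), of focal adhesions. Their adjusted p-values lay between 0.0227 (Plekha5, Rcan2 and Eva1a) and 0.0492 (Fam83d). Among genes that fell, the homeobox gene Hhex differed by -0.24 (SE 0.0352, adjusted p = 0.021), the small phosphatase gene Ctdsp2 by -0.24 (SE 0.0428, adjusted p = 0.0392), Ppp2r5a, a regulatory subunit of protein phosphatase 2A, by -0.24 (SE 0.0463, adjusted p = 0.0492), and the forkhead gene Foxn2 by -0.07 (SE 0.013, adjusted p = 0.0405). The groups of Foxn2 overlapped, as did those of Xdh.

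The 42 compressed calls, of which only Lipe is in a list, have log2 differences too small to read as fold changes. Gbf1, which activates ARF proteins at the Golgi, rose by 5.78 residual SDs (adjusted p = 0.0117), at -3.81 to -1.57 residual SDs about the 12-array mean in the controls and 1.36 to 4.31 after restraint. Its 2 other probe sets differed by -0.12 log2 units and by -1.59 residual SDs, both at an unadjusted p under 0.05, so the direction of Gbf1 depends on the probe set. Flvcr1, a membrane carrier gene, rose by 4.83 residual SDs, C1h19orf12 by 4.82, Ccdc28a by 4.55 and the cytochrome P450 gene Cyp3a18 by 4.22. Cpeb3, a regulator of translation at synapses, rose by 4.26, and Ero1a, an oxidase of protein folding, by 3.75. The other probe set of Ero1a, which was not compressed, differed by only 0.02 log2 units (0.066 residual SDs). The other 23 that rose beside Lipe were Ifitm10, Prr5, Fanca, Cyren, Arhgap22, Pptc7, Cptp, LOC102550503, Agk, Napb, Krt86, Atp6v0a4, Mid2, Pus7l, Whamm, Farp2, Rab24, Afm, Zfp469, Nbeal2, Nsrp1, LOC100909866 and Hsf4, at 3.0 to 3.80 residual SDs. Nol4l fell by 4.10 residual SDs, and Rybp, a polycomb partner, by 3.52, while its second probe set fell by 5.09. Taf4, Smad5, Vps37b, Vsir, Afap1l1, Sertad2, Lpar6 and Phf3 fell by 3.12 (Lpar6 and Sertad2) to 3.71 (Taf4) residual SDs. Their directions rest on differences below 0.001 log2 units, so a rescaling of the arrays by more than that can set their sign.

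**Figure D4:**
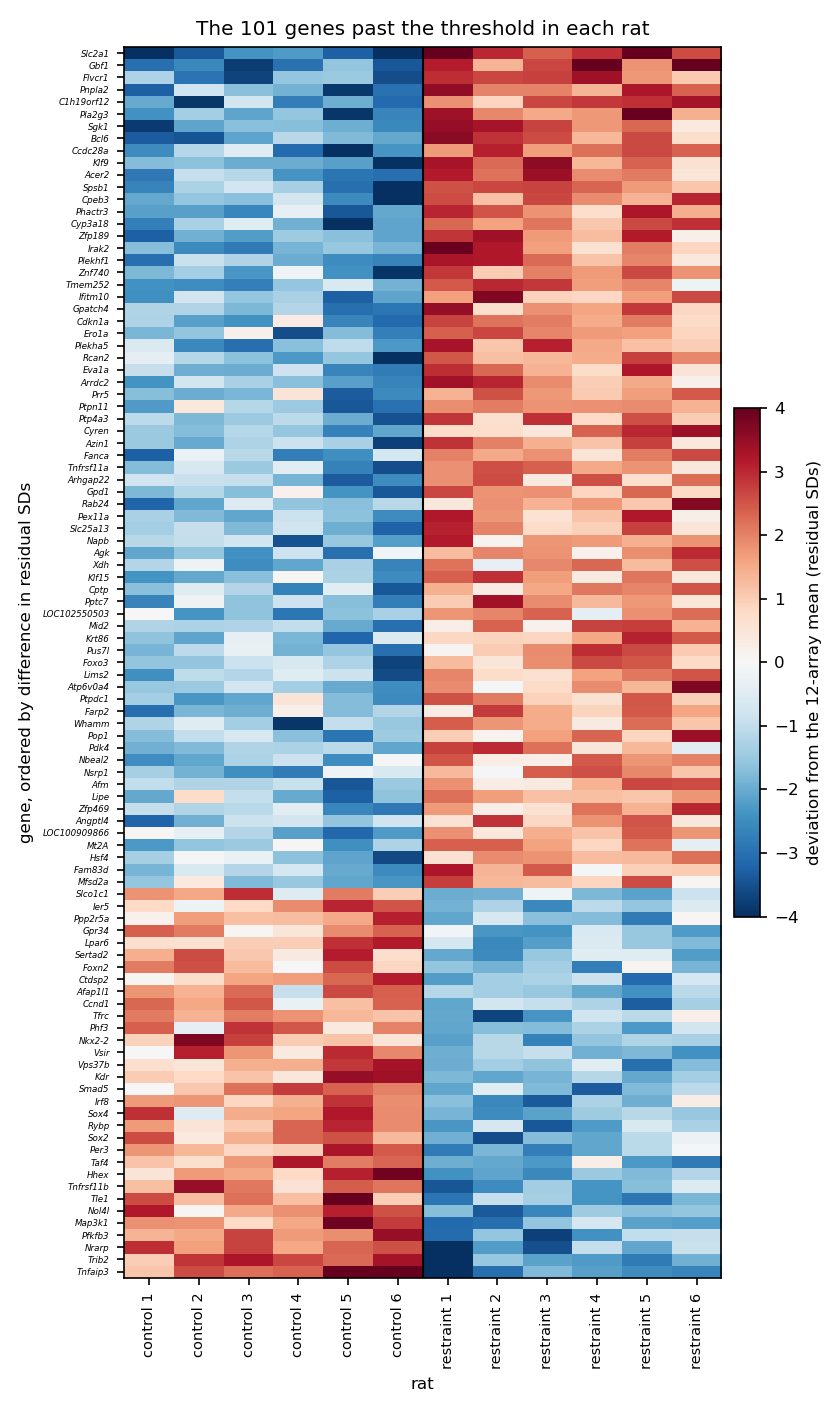
Deviation of each of the 101 called genes from its 12-array mean, in residual SDs (colour, cut at 4), in the 6 control and the 6 restrained rats (columns), with genes ordered by their difference. The 69 genes at the top are higher and the 32 at the bottom lower after restraint; these genes were chosen for this contrast, so the split itself is no test.

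Second probe sets gave a check within the same RNA. Among the called genes 44 had more than 1 probe set, with 70 others in all. Of these 58 pointed the same way, 40 of them at an unadjusted p under 0.05, and 12 pointed the other way, 2 of them at that level (both Gbf1). Over all 20826 probe sets 15.9% had such a p, in either direction. Many of the 70 were compressed, and a rescaling of the arrays can set the sign of such probe sets, so the count of directions is a weak check. With all 20826 probe sets tested together 116 passed (0.557%), and 86 of the 101 probe sets used here were among them.

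Calls depended on single rats while directions did not. Each of the 101 genes was refitted 12 times with 1 rat left out: 24 passed every time, 3 (Angptl4, Mid2 and Rab24) in none, 47 in 1 to 3 fits, 15 in 4 to 6 and 12 in 7 to 11. These fits called 26 (without restrained rat 1) to 133 genes (without control 2) in all. The 24 were, among those that rose, Acer2, Bcl6, C1h19orf12, Ccdc28a, Cyp3a18, Flvcr1, Gbf1, Irak2, Klf9, Phactr3, Pla2g3, Plekhf1, Pnpla2, Sgk1, Slc2a1, Spsb1 and Zfp189, and among those that fell, Map3k1, Nol4l, Nrarp, Pfkfb3, Tle1, Tnfaip3 and Trib2. Without controls 4, 5 and 6, all 101 genes kept their direction and all 101 had an unadjusted p under 0.05 in that fit, as 777 genes (5.47%) did upward and 520 (3.66%) downward, but 1 of the 101, Kdr, passed the adjusted threshold. Among the 59 genes that were not compressed, the log2 difference without them was 0.936 times the full one in the median, and at least 0.8 times for 54. The genes were called with these same arrays, so this describes the dependence and is no new test.

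**Figure D5:**
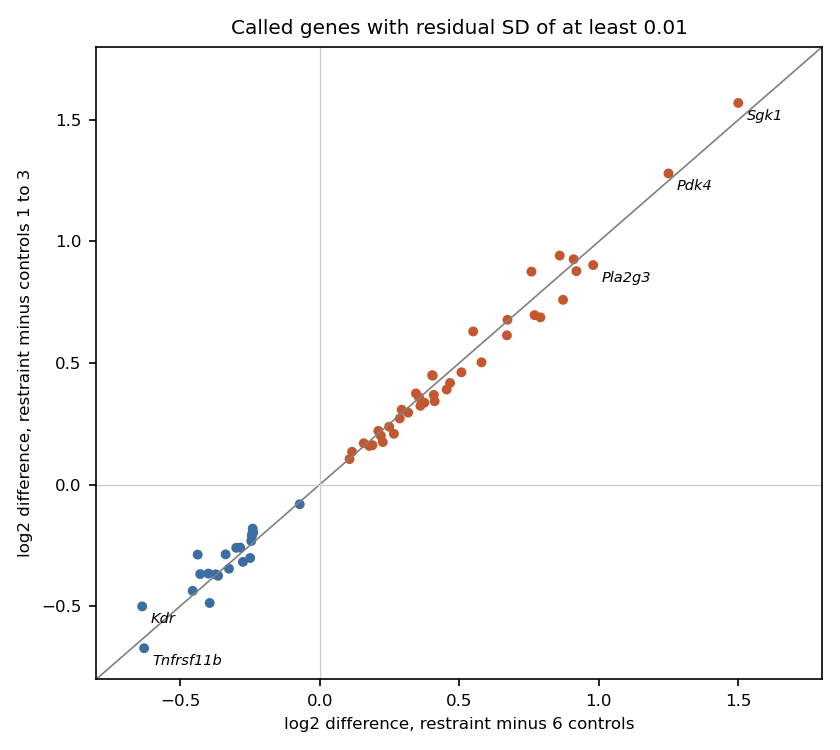
Log2 difference between restrained and control rats with all 6 controls (horizontal) and with controls 1 to 3 alone (vertical), for the 59 called genes with a residual SD of at least 0.01; the grey diagonal marks equal values. Points lie close to the diagonal, from Tnfrsf11b and Kdr at the lower left to Pdk4 and Sgk1 at the upper right.

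Genes at the threshold were alike on both sides of it. The last inside were Ier5, Slco1c1, Lipe, Ppp2r5a, Mfsd2a and Fam83d (adjusted p = 0.0492 for each). The first outside were Tdrp (-2.93 residual SDs, adjusted p = 0.0519), Rasl12 (-2.96) and Zfp658 (-3.01; both adjusted p = 0.0539).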

How the data were processed

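RNA of 12 hypothalamic blocks, 1 per rat, was measured on a 3′ expression array (Affymetrix type). The authors deposited log2 signals per probe set; per the labels' design text, control and restraint arrays were normalised as 1 set, and the sources used here name no summarisation or normalisation method. The other 12 columns entered no test and served only in choosing probe sets. Of 31099 probe sets, 57 array controls, 436 with several gene symbols and 9780 with none were set aside. Each of 14217 genes was read from the brightest of its probe sets, judged by the mean of all 24 columns. Groups were compared with limma 3.58.1 (lmFit, eBayes; R 4.3.3) on the deposited values, two-sided, with Benjamini-Hochberg adjustment over all genes at 0.05, without a filter, and the procedure was tested on simulated data. The p-values measure the spread between these rats, and the number of arrays limits the precision. Motifs were searched in Python 3.11.15, and figures drawn with matplotlib 3.10.9.

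Genes named are the 15 higher and 15 lower with the largest difference, in residual SDs and in log2 units (the latter with a residual SD of at least 0.01), called list members and the 2 of smallest p in each list, standard stress genes, genes beside the threshold, and called genes with a second probe set that passed or went the other way. Every other named gene (the rest of the called genes and the list members given as values) was chosen after its values were seen. Members and lists were chosen with earlier results of these data known. A list's score on an array is the mean, over its measured members, of their deviation from the 12-array mean in residual SDs. Alternatives were median centring, quantile normalisation, ordinary and robust variances, a filter on dim genes, other choices of probe set, a replicate block, a meningeal covariate, and fits without single arrays or without controls 5 and 6 or 4, 5 and 6.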

Additional observations from a re-analysis of the deposited data

Results flagged for a closer look

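Single rats stood far from the rest of their group in 18 of 346 groups examined (173 genes in both groups), where the gap to the nearest rat over the group's whole range exceeded Dixon's critical value. Chance gives this in about 1 in 20 groups. Among stress and peptide genes, Oxt was low in control 2 (9.12 log2, ratio 0.855) and in restrained rat 3 (8.00, 0.762), Trh was low in control 2 (7.83, 0.77), Per1 was low in control 1 (8.97, 0.707) and Arc was high in restrained rat 2 (8.00, 0.71). Among genes that rose, control 6 was low for Klf9 (11.5, 0.765) and Foxo3 (10.55, 0.693), control 2 was high for Mfsd2a (8.89, 0.704) and restrained rat 6 was low for Ptpn11 (12.01, 0.638). The oligodendrocyte gene Aspa was low in control 6 (9.29, 0.654). In compressed genes the ratio was 0.649 for Afap1l1 (control 4, low), 0.766 for Afm (control 5, low), 0.696 for Whamm (control 4, low), 0.647 for Slc4a1 (control 5, low), 0.786 for LOC102550503 (restrained rat 4, low), 0.713 for Taf4 (restrained rat 4, high), 0.674 for S100a9 (restrained rat 2, high) and 0.804 for Fgfr3 (restrained rat 6, high).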

How the results depend on the processing

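The 101 calls became 62 after median centring of each array (55 shared), 55 after quantile normalisation (52 shared), 3 without controls 5 and 6, 2 without controls 4, 5 and 6 (1 shared) and 0 when limma took the meningeal score as a covariate (1172 genes at an unadjusted p under 0.05). Leaving out 1 array gave 26 to 133 calls. The count fell by more than 1.5 times without control 1 (49), 3 (59), 5 (28) or 6 (40) and without restrained rat 1 (26), 3 (30), 4 (46) or 5 (28). The 5 settings not named here gave 80 to 116 calls. The replicate block gave 9 calls, 6 of them shared and 33.3% of them higher against 68.3% without it. Rats with the same number correlated in their deviations at 0.0866 to 0.226, below 0.1 for numbers 2 and 3, and only numbers 1 and 6 were their own best partners, so the numbers were not taken to pair the rats. Amotl2, Id3 and RGD1305537 passed with the block alone (adjusted p = 0.0234, 0.00251 and 0.0349 with limma, against 0.0652, 0.168 and 0.153 without it). The 59 called genes that were not compressed kept their direction under both scalings.

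Under median centring the log2 difference turned positive for Adora2a (0.0179), Afap1l1 and Vps37b (0.0176), Lpar6, Otp, Rasl12, Sertad2, Smad5 and Tyrobp (0.0177), Nr3c1, Phf3, RT1-CE16, S100a9, Taf4, Vsir and Zfp658 (0.0178), Nol4l (0.0037), Rybp (0.0107) and Tdrp (0.00701), as this setting by construction adds 0.018 to a typical gene and so turns any smaller fall. Under quantile normalisation it turned for Adora2a (0.0125), Afap1l1 (0.0116), Fgfr3 (-0.000668), Lpar6 (0.00799), Napb (-0.00699), Nr3c1 (0.00698), Otp (0.00167), Phf3 and RT1-CE16 (0.0126), Rasl12 (0.00647), S100a9 (0.00198), Sertad2 (0.0131), Smad5 (0.00557), Taf4 (0.00704), Tyrobp (0.0135), Vps37b (0.0133), Vsir (0.0112) and Zfp658 (0.0119). The mean over probe sets turned Gbf1 (-0.0417). Oxt turned without restrained rat 3 (0.22, the highest of fits without 1 array, the lowest being -0.672), without controls 4, 5 and 6 (0.129) and with the covariate (0.251). Pomc turned without controls 4, 5 and 6 (-3.22e-06), without controls 5 and 6 (-7.79e-06) and with the covariate (-1.97e-05), and Adora2a without control 4 (1.35e-05, the lowest of such fits being -0.000113), without controls 4, 5 and 6 (0.000101) and with the covariate (4.65e-05). For changes other than those of the scalings the cause was not tested. Signal over background is unknown in these values, which limits what can be said of dim genes.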
